A study of Mus musculus with 6 samples.

Results

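Transcripts of 8 genes best known from T and B lymphocytes were followed in 6 mouse tumours of a high-grade serous ovarian cancer model. The genes are Cd4, Cd5, Il7r, Il2ra, Ccl5, Cd79b, Bank1 and Jchain. They were taken by symbol, all 8 had a value, and they stand among 16344 genes in the table. AZD7507, an inhibitor of the macrophage growth factor receptor CSF1R, was given to the animals behind 3 of the tumours, and vehicle to those behind the other 3. All of them carried the mouse cell line 60577, injected into the abdominal cavity of syngeneic mice and left to establish for 21 days, and all had then received carboplatin in 3 weekly cycles. The agent followed by daily gavage for 84 days, per the labels' protocols, which do not write out the vehicle schedule. Tumours were taken at the humane endpoint, so the day of collection may differ between animals and cannot be told apart from treatment. The model rests on 1 transplanted cell line, the labels give no age or strain, and whole tumours were used, so every transcript is a sum over tumour, stromal and immune cells. Fewer cells of a type and less RNA per cell cannot be told apart in such samples.

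T cells recognise antigen through a receptor that signals with the CD3 chains, and the coreceptor CD4 marks the helper lineage. B cells signal through surface immunoglobulin bound to the CD79 chains, and once they become plasma cells they secrete antibody. Cytokines that act through the interleukin-7 and interleukin-2 receptors keep lymphocytes alive and let them divide. Several of these genes are also used by other cells. Cd4 in particular can be transcribed by some dendritic cells and macrophages, so it is not proof of T cells.

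Values are log2 RPKM, read density per gene length and library size on a log scale, where 0 equals 1 RPKM. Only Jchain stayed above 0 in all 6 libraries. Il7r was above 0 in 0 AZD7507 libraries and in all 3 vehicle libraries, Ccl5 was above 0 in AZD7507 3 alone, and Cd79b in Vehicle 2 alone. Cd4, Cd5, Il2ra and Bank1 were below 0 in every library. Averaged over the 6 libraries, the level of Jchain was higher than that of 77.8% of all genes, while the other members were higher than 0.618% (Bank1) to 12.6% (Il7r) of genes. These are low levels that may rest on few reads, and the number of reads behind them is unknown.

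With AZD7507, 7 of the 8 genes had a lower mean than with vehicle, as had 45.5% of all genes. None of the 8 passed the test over the whole table (limma, Benjamini-Hochberg adjusted p under 0.05), where 0.355% of genes passed, 0.337% lower and 0.0184% higher with AZD7507. At an unadjusted p under 0.05 there were 2 members, Cd4 and Il7r, both lower with AZD7507, where 5.49% of all genes were lower and 3.31% higher at that level. In 5 of the 8, namely Cd4, Cd5, Il7r, Il2ra and Bank1, every AZD7507 library lay below every vehicle library. Of all genes 8.02% were arranged this way (7.34% the other way round), and 9.06% of the 2229 genes whose mean lay between that of Bank1, the lowest member, and 0. The median difference of the 8 was -0.86, against 0.025 over all genes. The members were chosen with earlier results of these libraries known, so these counts are a description.

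**Figure D1:**
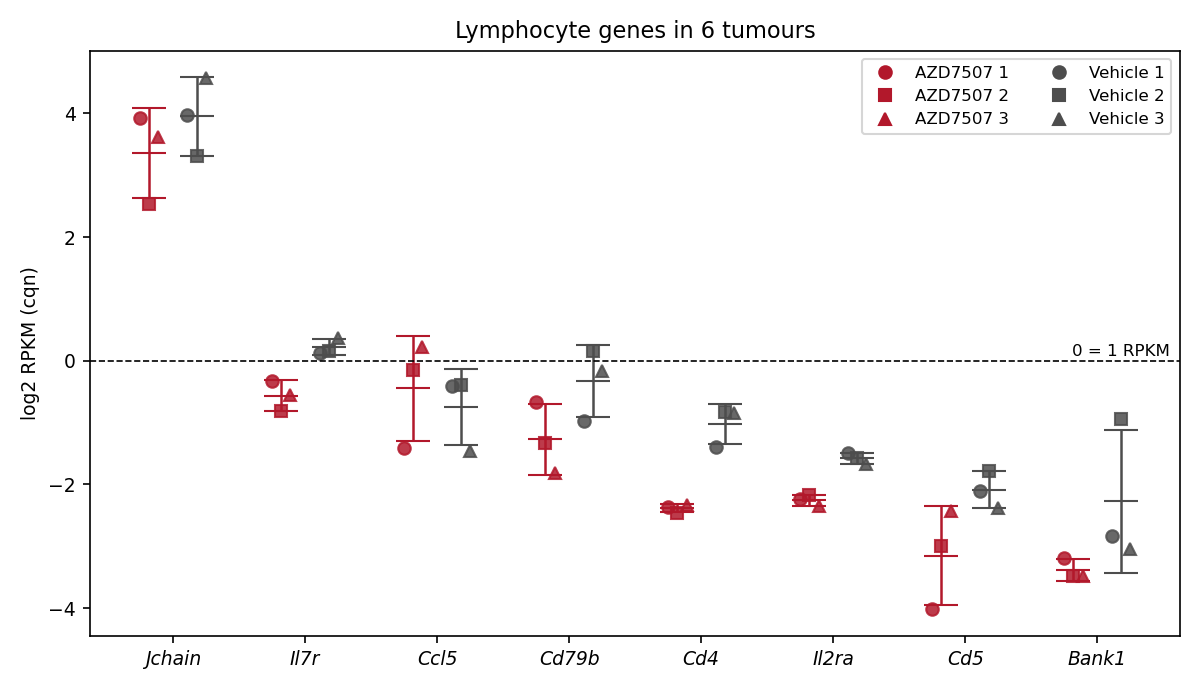
Log2 RPKM of the 8 lymphocyte genes (y axis) in each tumour, ordered by mean level, with AZD7507 tumours in red left of vehicle tumours in grey. Symbols mark single libraries, and bars are the mean with 1 SD (n = 3 each). Jchain lies above the dashed line of 1 RPKM in all 6 libraries, and the groups stand apart for Cd4, Cd5, Il7r, Il2ra and Bank1.

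RefSeq promoter entries (GRCm38.p6) were found for 5 of the 8 members, Cd5, Il7r, Il2ra, Bank1 and Jchain. The 250 bases before the annotated start are shown for the 4 of them whose groups stood apart. The 3 T-lineage genes among them, Il7r, Il2ra and Cd5, each hold 1 match to AGGAAGT, a core of the kind bound by ETS family transcription factors, searched on both strands and written in capitals. Read on the opposite strand these letters are ACTTCCT.
Il7r (chr15:9529877-9530126, minus strand): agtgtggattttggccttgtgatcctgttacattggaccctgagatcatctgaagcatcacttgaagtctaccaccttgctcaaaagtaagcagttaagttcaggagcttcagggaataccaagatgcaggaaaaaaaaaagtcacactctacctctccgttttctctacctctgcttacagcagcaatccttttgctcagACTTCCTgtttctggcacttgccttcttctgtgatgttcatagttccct
Il2ra (chr2:11642542-11642791, plus strand): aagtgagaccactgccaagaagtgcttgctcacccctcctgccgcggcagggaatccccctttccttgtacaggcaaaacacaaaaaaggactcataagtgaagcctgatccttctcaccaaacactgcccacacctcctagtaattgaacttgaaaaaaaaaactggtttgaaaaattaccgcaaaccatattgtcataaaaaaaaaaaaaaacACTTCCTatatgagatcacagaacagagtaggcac
Cd5 (chr19:10738975-10739224, minus strand): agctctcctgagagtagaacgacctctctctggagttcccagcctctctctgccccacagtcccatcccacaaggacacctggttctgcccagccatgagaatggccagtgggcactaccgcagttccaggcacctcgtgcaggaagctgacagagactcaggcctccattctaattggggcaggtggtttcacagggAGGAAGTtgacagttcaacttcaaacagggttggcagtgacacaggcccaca
Bank1 (chr3:136326067-136326316, minus strand): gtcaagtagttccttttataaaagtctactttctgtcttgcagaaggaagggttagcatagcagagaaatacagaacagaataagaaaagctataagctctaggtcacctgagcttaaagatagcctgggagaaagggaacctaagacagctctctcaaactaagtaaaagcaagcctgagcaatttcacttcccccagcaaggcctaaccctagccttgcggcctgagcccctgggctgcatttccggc
The Il7r window, and the end of the Cd5 window next to its start, lie inside the longer GENCODE M21 gene models. The match begins 49 bases before the start in Il7r, 35 in Il2ra and 52 in Cd5. Of all 32851 promoter entries of the same length, 7.69% hold the letters. The motif was picked after these sequences had been read, so 3 of 5 is a description of them and nothing more. The windows of Bank1 and Jchain do not hold these letters.

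Cd4 encodes the coreceptor that binds MHC class II on the antigen-presenting cell. The gene occupies positions 124864692 to 124888221 of chromosome 6 (GRCm38, minus strand). Its level was -2.36, -2.46 and -2.33 log2 RPKM in AZD7507 libraries, against -1.40, -0.82 and -0.85 in vehicle libraries. The AZD7507 libraries were within a narrow band (-2.38 ± 0.07, SD, n = 3), and all lay below the vehicle libraries (-1.03 ± 0.32, SD, n = 3). The difference was -1.36 (SE 0.31), or 2.57-fold lower with AZD7507, with a limma adjusted p of 0.188. With a pseudocount of 1 the difference shrank to -0.33, since both groups are under 1 RPKM. The same setting gave -0.14 for Cd5, -0.36 for Il7r, -0.14 for Il2ra, -0.35 for Cd79b, -0.19 for Bank1 and 0.14 for Ccl5, and -0.54 for Jchain, the member above 1 RPKM throughout.

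Cd5, an inhibitory surface receptor of T cells and of some B cells, lies on chromosome 19 at 10717116 to 10739002 on the minus strand. It was at -4.02, -3.004 and -2.44 in AZD7507 libraries, against -2.11, -1.78 and -2.38 in vehicle libraries. The groups stood apart only narrowly, since AZD7507 3 at -2.44 was close to Vehicle 3 at -2.38. The difference was -1.07 (SE 0.50, limma adjusted p 0.607), and it was -0.63 without AZD7507 1, the lowest library. Even in the vehicle libraries Cd5 was under 0.3 RPKM, with 0.291 RPKM at most.

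Il7r encodes the chain that gives the interleukin-7 receptor its specificity, and lies on chromosome 15 at 9505788 to 9530176 on the minus strand. It was at -0.33, -0.81 and -0.55 in AZD7507 libraries, against 0.13, 0.16 and 0.37 in vehicle libraries. Each AZD7507 library was below 0 and each vehicle library above it. The difference was -0.78 (SE 0.23, limma adjusted p 0.338), and it ranged from -0.90 to -0.65 when each library was left out in turn.

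Il2ra encodes CD25, the chain that raises the affinity of the interleukin-2 receptor and marks regulatory and activated T cells. It lies on chromosome 2 at 11642807 to 11693193 on the plus strand. Its values were -2.24, -2.17 and -2.35 in AZD7507 libraries, against -1.50, -1.58 and -1.67 in vehicle libraries. Both groups were tight, with SDs of 0.09 and 0.09, and they did not overlap. The difference was -0.68 (SE 0.295, limma adjusted p 0.576). The test takes its SE partly from other genes of this low level, whose median SE was 0.371, so it is wider than the spread of these libraries alone. A gene model, Gm37881, overlaps Il2ra on the same strand, so reads of the pair may not have been told apart.

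Ccl5, a chemokine made by activated T cells and NK cells and also by other cells, lies on chromosome 11 at 83525778 to 83530518 on the minus strand. It was the 1 member with a higher mean in AZD7507 tumours. Its values were -1.41, -0.16 and 0.22 in AZD7507 libraries, against -0.41, -0.39 and -1.46 in vehicle libraries. AZD7507 2 and AZD7507 3 lay above every vehicle library and AZD7507 1 among them, so the groups overlapped. The difference was 0.30, with a 95% interval of -0.87 to 1.47 and a limma adjusted p of 0.911. Its sign turned to -0.03 without AZD7507 3 and to -0.05 without Vehicle 3.

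Cd79b encodes a signalling chain of the B cell receptor and lies on chromosome 11 at 106311341 to 106314762 on the minus strand. It was at -0.67, -1.32 and -1.81 in AZD7507 libraries, against -0.97, 0.16 and -0.17 in vehicle libraries. AZD7507 1 lay above Vehicle 1, so the groups overlapped. The difference was -0.94 (SE 0.42, limma adjusted p 0.583).

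Bank1, a scaffold protein of B cell receptor signalling, lies on chromosome 3 at 136053363 to 136326066 on the minus strand. It was at -3.19, -3.49 and -3.49 in AZD7507 libraries, against -2.83, -0.945 and -3.05 in vehicle libraries. Vehicle 2 alone was far above the others. The difference was -1.11 (SE 0.61, limma adjusted p 0.678), and it was -0.45 without Vehicle 2. An antisense gene model, Gm31243, overlaps Bank1 on the opposite strand. The strand setting of the counting was not given in the sources used here, so reads of the pair may not have been told apart.

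Jchain encodes the joining chain that links units of secreted IgM and IgA and is made by plasma cells. It lies on chromosome 5 at 88519809 to 88527891 on the minus strand. It was at 3.92, 2.54 and 3.63 in AZD7507 libraries, against 3.97, 3.31 and 4.57 in vehicle libraries. The group ranges overlapped, and the lowest library of each group was its replicate 2. The difference was -0.59 (SE 0.42, limma adjusted p 0.772), and it ran from -0.91 without Vehicle 2 to -0.28 without Vehicle 3 and -0.18 without AZD7507 2. Jchain, at 5.80 to 15.2 RPKM with AZD7507 and 9.92 to 23.8 RPKM with vehicle, supplied most of the summed RPKM of the 8 genes, which was 8.28 to 17.5 with AZD7507 and 14.6 to 27.5 with vehicle.

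In order of mean level, RPKM being scaled by gene length, Jchain came first in both groups and Cd5 and Bank1 last. With AZD7507 the order was Jchain, Ccl5, Il7r, Cd79b, Il2ra, Cd4, Cd5 and Bank1. The libraries of neighbours stood apart only for Jchain over Ccl5, by 3.81, and for Cd79b over Il2ra, by 0.99. With vehicle the order was Jchain, Il7r, Cd79b, Ccl5, Cd4, Il2ra, Cd5 and Bank1, and neighbours stood apart for Jchain over Il7r, Cd4 over Il2ra and Il2ra over Cd5, by 3.73, 0.55 and 0.51.

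**Figure D2:**
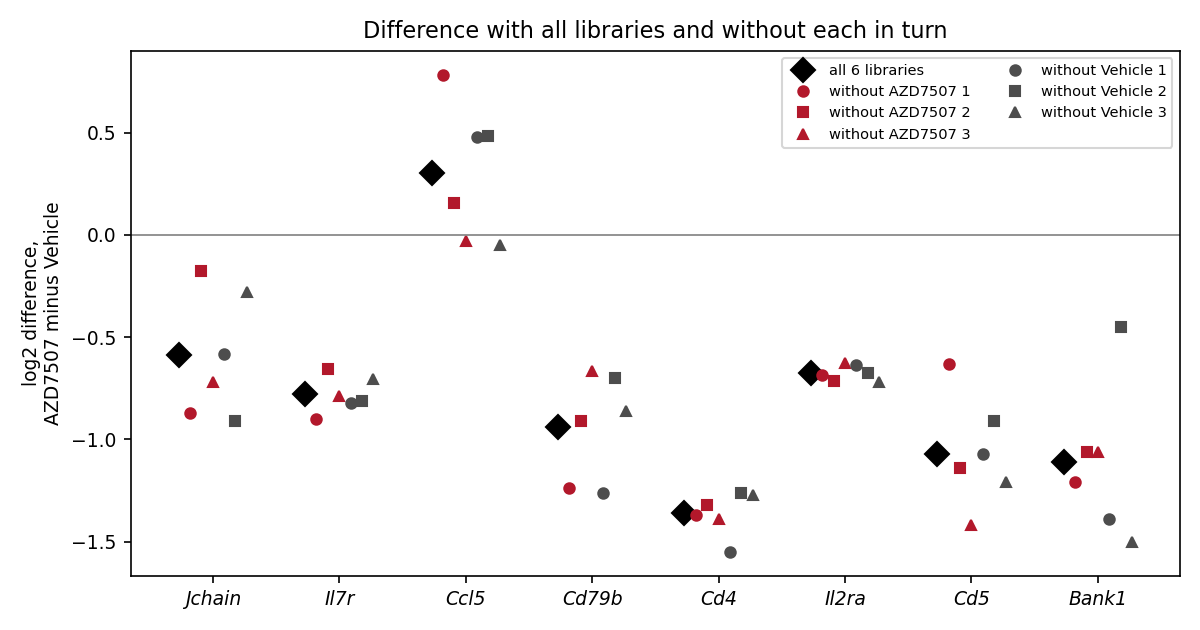
Difference in log2 RPKM, AZD7507 minus vehicle (y axis), for each of the 8 genes with all 6 libraries (black) and without each library in turn (red for an AZD7507 library left out, grey for a vehicle library). Cd4, Il7r and Il2ra keep to a narrow range, Bank1 moves to -0.45 without Vehicle 2, and Ccl5 crosses 0.

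The members varied over the libraries in different ways. After each gene was centred on its own mean, Il7r and Il2ra were the most alike pair, with a root mean square difference of 0.215 on the log2 scale over the 6 libraries, followed by Cd4 and Il7r at 0.35. The least alike pair was Ccl5 and Cd79b at 1.16. Outside the 8, among 11534 genes with a mean of at least 0, the nearest to Cd4 were Mef2c, a transcription factor gene, at 0.142 and Plbd1 at 0.146. Plbd1 was called lower with AZD7507 (difference -1.17, limma adjusted p 0.0378, lost without any 1 library). Nearest to Il7r was Mpeg1, a pore-forming protein gene of macrophages, at 0.0968, then Acox3 at 0.123. Fnbp1 at 0.0553 and Akna at 0.067 were nearest to Il2ra, and Dse at 0.152 and Plek at 0.16 to Cd79b. Bank1 was nearest to Slc37a2 at 0.213 and to Acp5, the tartrate-resistant acid phosphatase gene of osteoclasts and macrophages, at 0.219. Acp5 was at 3.17 to 3.39 in AZD7507 libraries, and at 5.62 in Vehicle 2, where Bank1 was also highest, and 3.33 and 3.37 in the other vehicle libraries. Nearest to Jchain were Plxnb3 at 0.196 and P2ry2 at 0.215. The nearest genes were further off for Cd5 (Mir6539 at 0.30 and Per1 at 0.393) and for Ccl5 (Papln at 0.284 and Phf19 at 0.289). Each of these is the closest of 11534 genes over 6 libraries, and no shared function is read from it.

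Other genes of the T cell receptor complex, its coreceptors and its signalling were measured to set Cd4 and Cd5 in context. Of 20 listed genes 11 had a value, and 9 of these had a negative difference, as had 45.5% of all genes. In this list 0 passed over all genes, and the median difference was -0.59. The members with the smallest unadjusted p were Lcp2, the SLP-76 adaptor gene, at -1.40, Cd4, and the adaptor gene Skap1 at -0.98 (limma adjusted p 0.094, 0.188 and 0.530). SLP-76 is also used by myeloid cells and platelets. Cd3e, the CD3 chain that marks T cells, was at -1.001, -1.04 and -0.38 in AZD7507 libraries, against -0.81, -0.40 and -0.985 in vehicle libraries, with the groups mixed. Its difference was -0.08, with a 95% interval of -0.79 to 0.64. The kinase gene Lck, the adaptor gene Lat and Ptprcap differed by -0.22, -0.065 and 0.05, with overlapping groups. The defining T cell genes Cd3d, Cd3g, Cd247 and Cd8a were listed but had no value here. Cd3e, Lck, Lat and Ptprcap were chosen after their values were seen.

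Cd4 was also set against Cd3e within each library. Cd4 minus Cd3e was -1.36, -1.42 and -1.95 in AZD7507 libraries, against -0.59, -0.42 and 0.13 in vehicle libraries. The groups did not overlap, but the exact 2-sided permutation p was 0.10, the smallest that 3 against 3 allows, and 0.257 adjusted over 9 such contrasts. Set against Ptprc, the CD45 gene of all leukocytes, Cd4 was at -4.61, -4.59 and -3.67 in AZD7507 libraries, against -4.55, -4.53 and -4.07 in vehicle libraries, and the groups overlapped (exact permutation p 1.0). Set against Csf1r, the gene of the drug target, Cd4 was at -4.93, -5.23 and -4.05 in AZD7507 libraries, against -6.25, -6.29 and -5.45 in vehicle libraries, with the groups apart in the upward direction (exact permutation p 0.10). In the rest of the 9 contrasts the groups overlapped. Il7r and Il2ra against Cd3e, and Il7r, Cd79b and Ccl5 against Ptprc, each had an exact permutation p of 0.2. Jchain against Mzb1 had an exact permutation p of 0.9. All these contrasts were chosen after the values were seen.

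**Figure D3:**
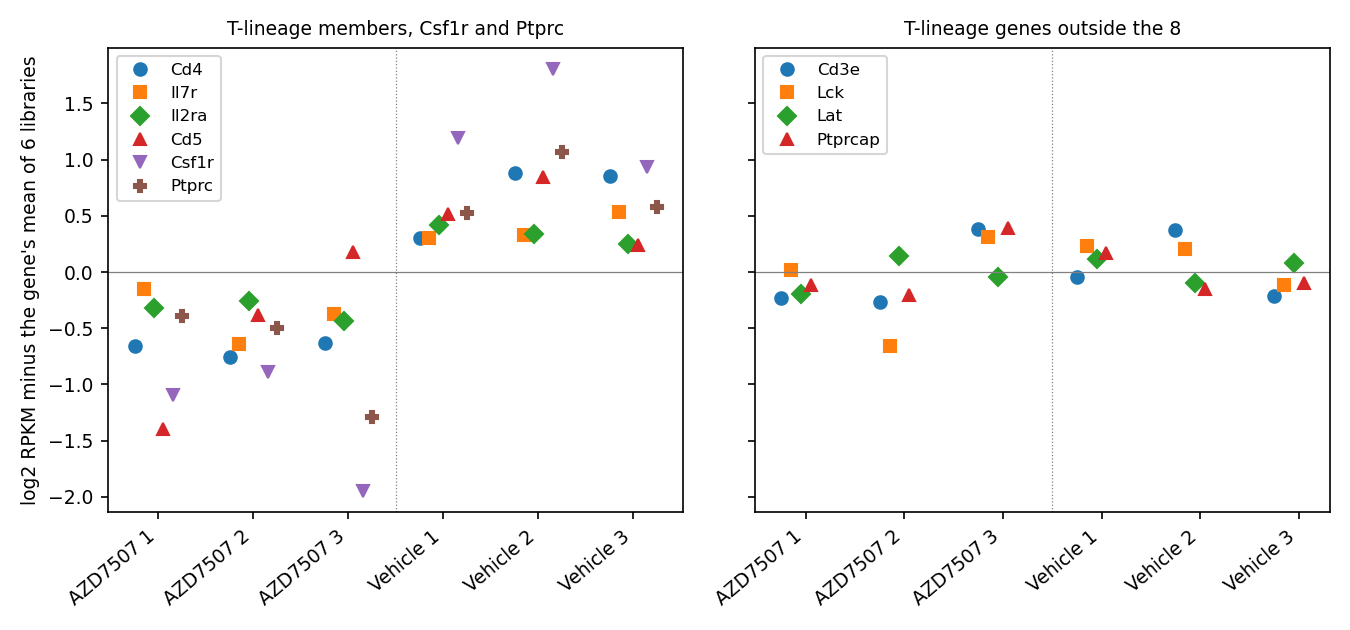
Log2 RPKM of single genes minus their own mean of the 6 libraries (y axis) in each library, with AZD7507 libraries left of vehicle libraries. Left, Cd4, Il7r, Il2ra and Cd5 with Csf1r and Ptprc, where vehicle libraries are high; right, Cd3e, Lck, Lat and Ptprcap, where the groups mix.

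In the list of T cell subset and homing genes, 14 of 16 had a value, 7 were lower and 7 higher, 0 passed, and the median difference was -0.01. Besides Il7r and Il2ra the smallest unadjusted p was that of Gata3, a transcription factor gene of T helper cells and of epithelia, at 0.53 (limma adjusted p 0.560). Among cytotoxic and NK cell genes only 2 of 12 had a value, Ccl5 and Il2rb, and Il2rb differed by -0.14 (limma adjusted p 0.944).

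For the receptors of interleukin-2 and interleukin-7 and their signalling, 13 of 16 genes had a value. Of these 12 had a negative difference, as had 45.5% of all genes, 0 passed, and the median was -0.23. Il2rg, the common chain that both receptors need, was at 0.997, 0.23 and 0.22 in AZD7507 libraries, against 0.83, 1.53 and 1.31 in vehicle libraries. AZD7507 1 lay above Vehicle 1, and the difference was -0.74 (SE 0.29, limma adjusted p 0.517). Jak3, the kinase bound to the common chain, differed by -0.47 (limma adjusted p 0.542).

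Around Ccl5, 8 of 11 genes for its receptors and related chemokines had a value, with 5 lower, 3 higher and 0 passing. Ccr1, which encodes a receptor for it, had the smallest unadjusted p. It was at 3.19, 2.62 and 2.07 in AZD7507 libraries, against 3.97, 4.86 and 3.77 in vehicle libraries, a difference of -1.57 (limma adjusted p 0.180). The receptor is expressed by monocytes and macrophages as well as by T cells, and the groups stood apart. The chemokine gene Ccl11 differed by 1.32 (limma adjusted p 0.678).

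The list of the B cell receptor complex and B cell identity held the 1 pathway gene that passed. Of its 18 genes 10 had a value, with a median of -0.82. Among these 9 had a negative difference and 1 fell, against 45.5% and 0.337% of all genes. Cd72, an inhibitory coreceptor of B cells that mouse macrophages can also express, was at -0.50, -0.41 and -0.50 in AZD7507 libraries, against 1.80, 1.70 and 1.18 in vehicle libraries. It fell by 2.03 (SE 0.22, limma adjusted p 0.021). The call was lost without any 1 of the 6 libraries, at limma adjusted p of 0.0751 to 0.128, while the difference stayed between -2.22 and -1.91. The lectin gene Cd22 differed by -1.41 and the kinase gene Btk by -1.38 without passing (limma adjusted p 0.094 and 0.243). The defining B cell genes Cd79a, Ms4a1 and Pax5 were listed but had no value here.

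Of 11 listed signalling partners of the B cell receptor, 10 had a value, with a median of -1.21 and 0 passing. In 9 of the 10 every AZD7507 library was below every vehicle library, as in 8.02% of all genes. Vav1, an exchange factor gene, differed by -1.56, Pik3cd, a lipid kinase gene, by -0.93 and Lyn, the kinase that BANK1 binds, by -1.25 (limma adjusted p 0.053, 0.068 and 0.135). These genes are used by myeloid cells too.

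**Figure D4:**
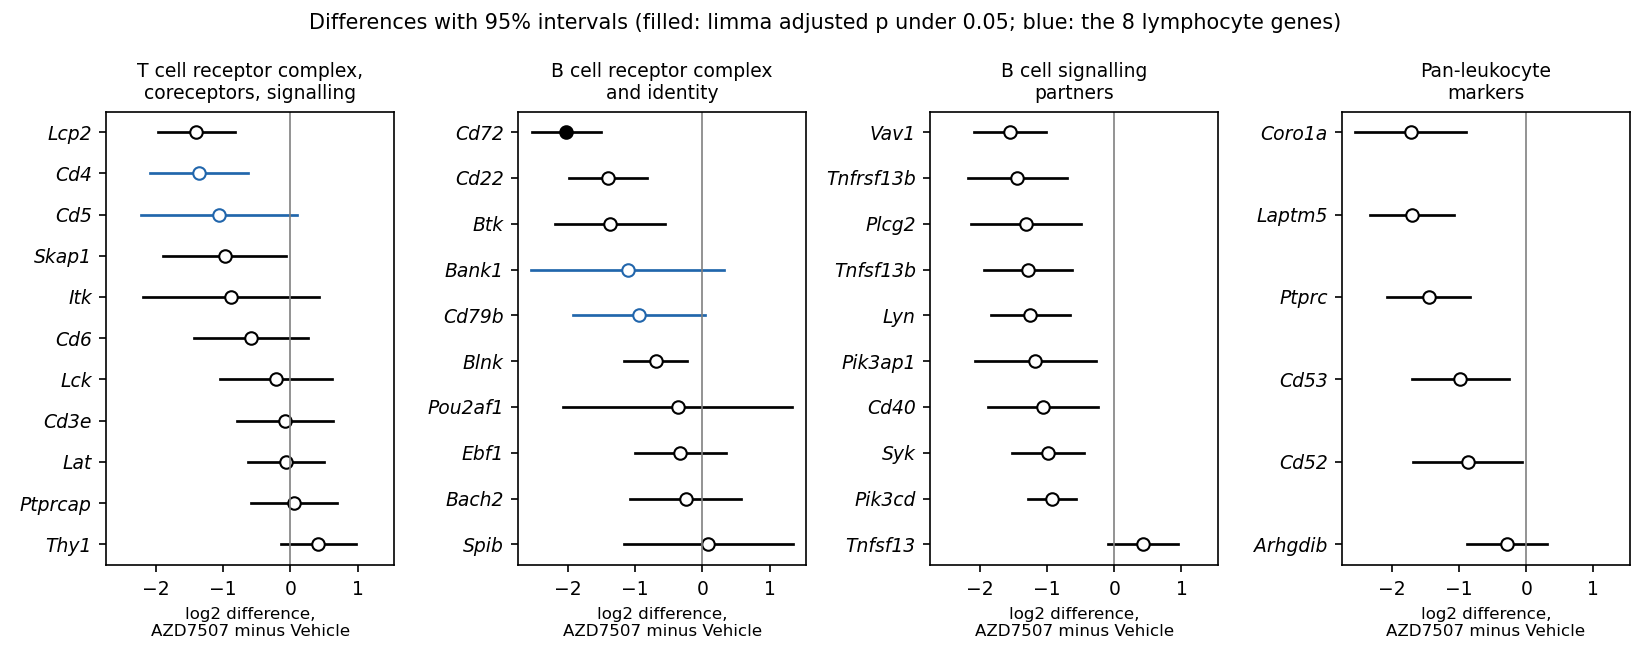
Difference in log2 RPKM, AZD7507 minus vehicle (x axis), with 95% intervals from limma for the measured genes of 4 lists, ordered within each panel; blue marks those of the 8 lymphocyte genes. Cd72 is the 1 filled point (adjusted p under 0.05), while Cd3e, Lat, Lck and Ptprcap sit near 0.

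Genes of the plasma cell list gave no common direction. Of 10 genes 9 had a value, 5 lower and 4 higher with 0 passing, and the median was -0.04. The lower were Jchain, Mzb1, Prdm1, Irf4 and Sdc1, and the higher were Derl3, Fkbp11, Xbp1 and Pigr. Sdc1, Derl3, Xbp1 and Pigr are named after their values were seen. Prdm1, which encodes the plasma cell regulator BLIMP-1, differed by -0.69, Irf4 by -1.02 and Fkbp11, a chaperone gene of secretory cells, by 0.78 (limma adjusted p 0.607, 0.621 and 0.705). Mzb1, a plasma cell and B cell chaperone gene chosen after its values were seen, was lowest in AZD7507 2, at -2.18, the library with the lowest Jchain. Pancreatic acinar transcripts marked AZD7507 2 and Vehicle 2, with a summed level of 4918 and 4482 RPKM over 8 measured marker genes, against 9.01 and 1.54 RPKM in the other AZD7507 libraries and 0.538 to 5.49 RPKM in the other vehicle libraries. These are the 2 libraries lowest in Jchain in their groups, and also the highest in Derl3, Fkbp11, Xbp1 and Pigr. The part of pancreatic tissue in either was not tested. Among lymphoid chemokine and lymphoid tissue genes, 7 of 12 had a value, 0 passed and the median was 0.10. Cxcl13, which attracts B cells, was at 0.34, -0.71 and -0.34 in AZD7507 libraries, against 1.78, 4.91 and 0.64 in vehicle libraries, a difference of -2.68 (limma adjusted p 0.481) with Vehicle 2 far above the rest. Madcam1 differed by 0.65 and Cxcl10 by 0.71 (limma adjusted p 0.571 and 0.593).

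Across the 9 pathway lists, 72 genes other than the 8 had a value, with a median difference of -0.27. Of these 49 had a negative difference, 1 fell and 0 rose, against 45.5%, 0.337% and 0.0184% of all genes. Macrophage markers were measured in the same libraries. All 12 listed macrophage markers had a negative difference, and 6 of them fell, against 45.5% and 0.337% of all genes. For each of the 12 every AZD7507 library was below every vehicle library, as in 8.02% of all genes. The number of these markers called was 2 without AZD7507 1 and 0 without any other library. Their summed level was 87.5 to 208 RPKM with AZD7507 and 444 to 719 RPKM with vehicle. The 6 pan-leukocyte markers summed to 22.5 to 37.1 RPKM with AZD7507 and 47.3 to 80.1 RPKM with vehicle. Of 9 dendritic cell markers 4 had a value, Irf8 fell by 1.71 (limma adjusted p 0.035, lost without any 1 library), and the sum was 7.69 to 10.4 RPKM with AZD7507 and 12.7 to 15.6 RPKM with vehicle. The part of myeloid cells in the values of Cd4, Il7r, Il2ra, Cd79b and Bank1 was not tested. For epithelial markers, 6 of 8 with a value, the sum was 441 to 550 RPKM with AZD7507 and 312 to 481 RPKM with vehicle. Osteoclast-type markers, 5 of 6 with a value, summed to 17.3 to 21.9 RPKM in AZD7507 libraries, and to 202 RPKM in Vehicle 2 and 18.7 and 21.2 RPKM in the other vehicle libraries. Vehicle 2 was also highest in Bank1, and the part of such cells in that was not tested. None of the epithelial, osteoclast-type, acinar or pan-leukocyte markers passed.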

How the data were processed

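The authors deposited 1 table of log2 RPKM values for 16344 Ensembl genes in 6 libraries of ribosome-depleted total RNA, which their table's name says were normalized with cqn. BWA 0.7.15-r1140, HTSeq, mm10 and GRCm38 are named in the submitters' processing notes. No source used here gives the annotation, strand setting or low-gene filter. The libraries share nearly all their values (99.95% of the distinct values of AZD7507 1 occur in Vehicle 1), so a global shift cannot be seen. No counts entered, so depth is unknown. Precision comes from the 3 libraries of each group and, in limma, partly from other genes of a like level.

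Symbols matched 16306 identifiers, and coordinates are GENCODE M21 (GRCm38). The treatment label set the groups; replicate numbers follow record order only. The labels do not tie tumours to animals or batches, so p-values measure the spread between these samples, which may be technical. The deposited log2 values were tested in R 4.3.3 by limma 3.58.1 (trended and robust prior), no pseudocount and no filter, 2-sided, with Benjamini-Hochberg adjustment over all genes at 0.05. The fit was tested on simulated data. Permutation tests used scipy 1.17.1. Members, 9 pathway lists (122 genes, 80 with a value) and 6 marker lists were chosen with earlier results of these data known. Named genes are the members, those passing in each list, the 3 with the smallest unadjusted p and the 2 nearest in pattern to each member (named genes with a mean of at least 0); others are marked where they appear. A gene that this rule took is left out here. Settings varied were the prior (constant), array weights, median centring, quantile normalization, pseudocounts (0.1 and 1), a minimum mean of 0, and each library left out. Median centring and quantile normalization could change little, since the libraries already share nearly all their values. A fit without both acinar-rich libraries was added after the data had been seen.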

Additional observations from a re-analysis of the deposited data

How the results depend on the processing

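None of the 8 lymphocyte genes passed with limma under any setting run, with a lowest adjusted p of 0.0628, for Cd4 with a constant variance prior. At an unadjusted limma p under 0.05 there were 0 to 4 members. The 4 came with the constant prior, where 857 of 16344 genes were lower and 534 higher at that level. Array weights gave 3 members, where 1446 genes were lower and 1274 higher. The 0 came at a minimum mean of 0, where 729 of 14014 genes were lower and 491 higher. The count of members with all AZD7507 libraries below all vehicle libraries was 5 to 6 when each library was left out (where 10.4% to 17.8% of all genes stood so, against 8.02% with all libraries), 6 without both acinar-rich libraries (23.6% of all genes) and 0 at a minimum mean log2 RPKM of 0. That filter leaves Jchain alone, so the count of negative differences was then 1. The direction turned for Ccl5 only, whose difference ran from -0.0506 (without Vehicle 3) to 0.784 (without AZD7507 1) and was -0.0298 without AZD7507 3. The difference of Bank1 was -0.399 without both acinar-rich libraries.

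Among all genes tested, 55 were lower and 3 higher. With array weights 143 were lower and 14 higher, with a constant prior 1 was higher, and without both acinar-rich libraries 13 were lower and 1 higher. Leaving out each library gave 0 to 14 lower and 0 higher genes (limma; unadjusted p under 0.05 for 606 to 1359 lower and 257 to 1082 higher). The calls of Cd72, Irf8 and Plbd1 were lost without both acinar-rich libraries (limma adjusted p 0.08, 0.0813 and 0.0991), and that of Irf8 with a constant prior (0.0593), where 3 macrophage markers passed. Levels under 1 RPKM limit all members but Jchain. No paired analysis was possible because the labels give no replicate numbers that groups share.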
